A study of Rattus norvegicus with 32 samples.

Results

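Messenger RNA of 6 genes that code for inhibitors of axon growth and their receptors was measured in 4 regions of the rat brain after saline or a methamphetamine (METH) binge. They were taken by gene name from the 28914 genes counted in each of 32 RNA-seq libraries. The choice was made with earlier results of these data known. The study had shown Rtn4rl2 as an example of high expression in the dentate gyrus and Ammon's horn. Rtn4 and Omg code for inhibitors, Rtn4r, Rtn4rl1 and Rtn4rl2 for the 3 Nogo receptors, and Lingo1 for a co-receptor. Adult male Sprague-Dawley rats had 4 intraperitoneal injections, 2 h apart, of METH at 10 mg/kg or of saline (Sal) at 1 mL/kg, and tissue was taken 24 h after the last one. No genetic change was made. By their file headers, saline and METH libraries of the NAc, DG and CA were spread unevenly over sequencing runs. Headers of the SVZ libraries matched none of these runs, so those libraries were taken as a run of their own. The nucleus accumbens (NAc) and the subventricular zone (SVZ) were punched from brain slices, while the dentate gyrus (DG) and the Ammon's horn (CA) were scooped out, so each library holds all cell types of its piece. Each of the 8 groups had 4 libraries, and DG Sal 3, for example, is the third saline library of the DG.

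Nogo, the product of the reticulon gene Rtn4, and oligodendrocyte myelin glycoprotein, the product of Omg, lie on myelin and on neurons and halt growing axons. Both bind the Nogo receptor, the product of Rtn4r, which is anchored to the outer face of the membrane and has no part inside the cell. It passes its signal on through partners, among them the product of Lingo1 and the receptors encoded by Ngfr and Tnfrsf19, to the small GTPase RhoA and its kinases, which collapse growth cones. The receptor encoded by Rtn4rl2 binds myelin-associated glycoprotein, that encoded by Rtn4rl1 binds chondroitin sulfate proteoglycans, and in the adult forebrain the Nogo receptor is known to restrain the plasticity of synapses.

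In the count files (rn6), Rtn4 spanned bases 114126943 to 114174458 of chromosome 14 on the plus strand, and Rtn4rl1 bases 62035866 to 62109078 of chromosome 10 on the plus strand. The other four lay on minus strands: Omg at 66845654 to 66848388 of chromosome 10, Rtn4r at 86992399 to 87017115 of chromosome 11, Rtn4rl2 at 72273424 to 72289310 of chromosome 3 and Lingo1 at 61274017 to 61290240 of chromosome 8. Omg lies inside the span of Nf1, a gene of the opposite strand, and shares no exon with it. Nf1 had 3453 to 6288 reads in the 32 libraries, and since counting ignored the strand, unspliced Nf1 RNA over Omg would be counted as Omg.

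The 250 bases before the RefSeq start of 4 of the genes are shown (build GRCr8, whose coordinates differ from those of rn6). Those of Rtn4 and Rtn4rl1 were not available, so Omg is the only inhibitor among the 4 shown. A link between these sequences and the levels by region was not tested. All 4 are from minus strands and read 5′ to 3′ in the direction of the gene, with GC boxes (GGGCGG or, on the other strand, CCGCCC) in capitals.
Omg, chr10:64962051-64962300: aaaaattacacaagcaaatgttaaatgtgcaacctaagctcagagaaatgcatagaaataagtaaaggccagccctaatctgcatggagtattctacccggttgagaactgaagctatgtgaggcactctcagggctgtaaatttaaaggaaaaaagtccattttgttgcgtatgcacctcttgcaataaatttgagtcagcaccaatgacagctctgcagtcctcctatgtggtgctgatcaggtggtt
Rtn4r, chr11:96373555-96373804: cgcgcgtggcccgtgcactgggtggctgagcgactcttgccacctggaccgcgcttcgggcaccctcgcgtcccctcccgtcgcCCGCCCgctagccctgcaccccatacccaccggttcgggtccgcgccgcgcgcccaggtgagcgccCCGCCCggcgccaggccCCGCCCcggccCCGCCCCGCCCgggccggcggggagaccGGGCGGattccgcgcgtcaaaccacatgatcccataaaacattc
Rtn4rl2, chr3:90377776-90378025: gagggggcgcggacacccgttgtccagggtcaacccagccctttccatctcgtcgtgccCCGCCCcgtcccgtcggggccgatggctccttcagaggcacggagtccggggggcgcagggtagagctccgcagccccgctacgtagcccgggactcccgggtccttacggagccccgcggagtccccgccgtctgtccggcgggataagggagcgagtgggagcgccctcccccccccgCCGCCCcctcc
Lingo1, chr8:65924167-65924416: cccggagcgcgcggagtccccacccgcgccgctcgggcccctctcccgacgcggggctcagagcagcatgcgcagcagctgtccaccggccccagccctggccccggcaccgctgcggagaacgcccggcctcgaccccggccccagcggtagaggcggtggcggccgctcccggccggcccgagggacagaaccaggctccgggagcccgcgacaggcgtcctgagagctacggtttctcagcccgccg
Of these windows, 41.6% of the bases before Omg were G or C, against 76.4% before Rtn4r, 74.8% before Rtn4rl2 and 78.0% before Lingo1, while the median of 33469 rat promoters was 51.2%. CpG pairs numbered 2 before Omg, 37 before Rtn4r, 29 before Rtn4rl2 and 34 before Lingo1, beside a median of 5.0. The window of Rtn4r held 6 GC boxes, that of Rtn4rl2 held 2, and none was found before Lingo1 or Omg, and 30.47% of all promoters held at least 1. E-boxes (CANNTG on either strand), which stand in 65.54% of all promoters, numbered 3 before Rtn4r, 2 before Omg, 1 before Lingo1 and 0 before Rtn4rl2. TATAAA was in none of the 4 windows on either strand and in 12.93% of all promoters. These matches describe letters only.

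Libraries held 11094002 to 21869773 counted reads (median 14533166.5), so 1 read was worth 0.0442 to 0.0934 CPM (counts scaled to a common library size). Several libraries stood apart from their label by marker genes. The summed level of 6 markers of glutamatergic neurons of cortex and hippocampus was 84.4 CPM in DG Sal 3. In the other 7 DG libraries it was 1776 to 3335 CPM. In NAc Sal 4 it was 1019.9 CPM, against 77.8 to 239 CPM in the other NAc Sal libraries. The NAc METH libraries had 98.2 to 719.8 CPM, so NAc Sal 4 was the highest of its region but stood apart less clearly than DG Sal 3. The summed level of 8 markers of striatal neurons was 1997 CPM in DG Sal 3 and 262 CPM in NAc METH 3, while the other 7 NAc libraries had 1678 to 9276 CPM. NAc Sal 4, with 1877 CPM, lay within that range. Thalamic markers reached 1822, 1640.4 and 1103 CPM in SVZ Sal 1, SVZ METH 2 and SVZ METH 4 and at most 468 CPM elsewhere, and those 3 libraries also had the highest sums of oligodendrocyte markers, 19180.0 to 27891 CPM. Ependymal markers, which should mark the SVZ, summed to 2.13 to 84.5 CPM there and to 1.43 to 37.9 CPM in the other regions, and granule cell markers were no higher in the DG Sal libraries (88.8 to 325 CPM) than in the CA Sal libraries (108 to 586 CPM), while after METH they were 147 to 584 CPM in the DG and 128 to 328 CPM in the CA. Library numbers in the file headers also go against the labels: Sal 1 and 2 of the DG carry the numbers of METH 1 and 2 of the NAc and CA, and the reverse, and each pair of SVZ METH libraries (1 and 2, 3 and 4) shares a number. SVZ METH libraries that share a number may come from 1 animal. Except where they were summed, SDs, SEs, intervals and tests treat these 4 libraries as independent. The NAc and CA libraries of a treatment carry the same numbers, so libraries of different regions may come from the same animals, while the region tests treat them as independent. The SVZ libraries were taken as a run of their own, since their headers matched no other run. For them region and run cannot be told apart. Headers of SVZ Sal 1, SVZ Sal 2, SVZ METH 2 and SVZ METH 4 carried the word EXTRA, and 3 of these are the libraries with high thalamic sums. Those of CA Sal 1 and CA Sal 2 named merged files and no run.

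**Figure D1:**
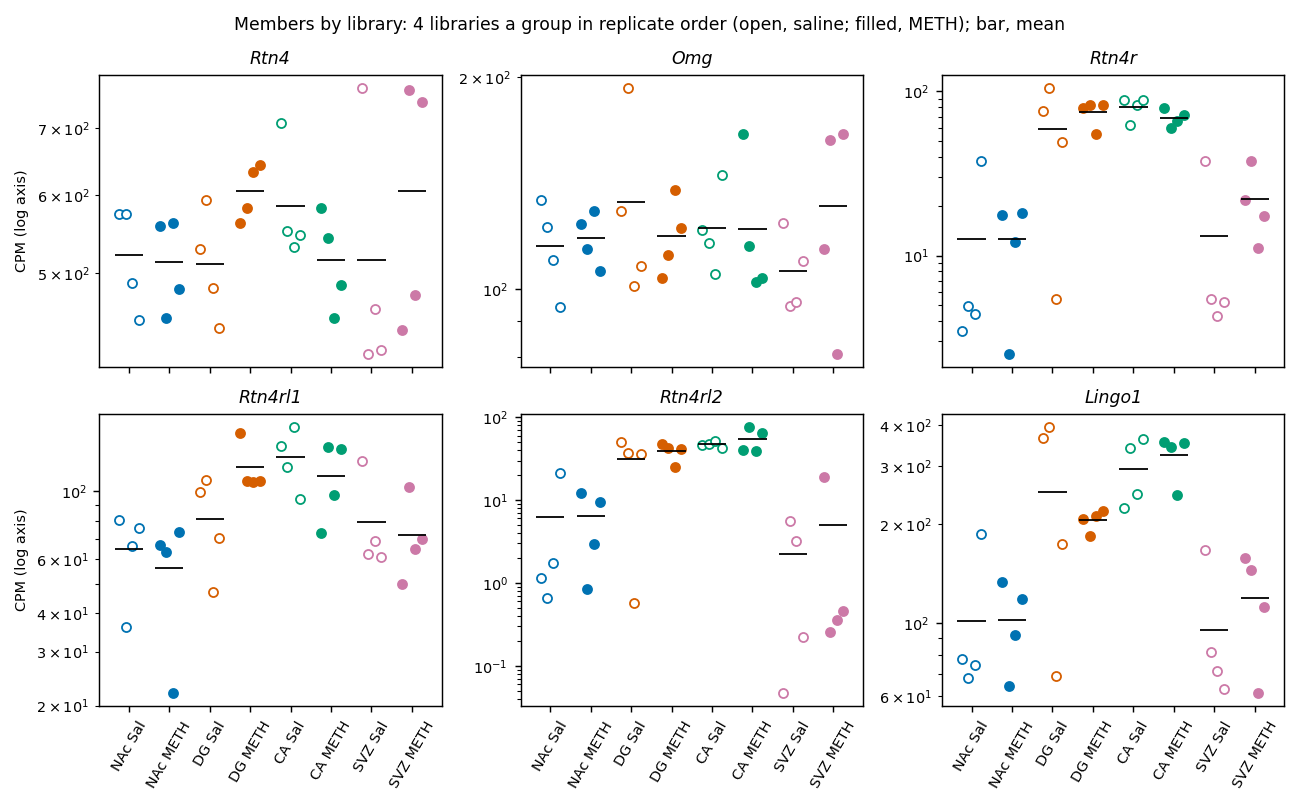
Level of each gene in CPM (log axis) in the 32 libraries, by region and treatment; open points are saline libraries, filled points METH libraries, placed in replicate order, and bars are group means. Rtn4 and Omg stay in narrow bands in all groups, while Rtn4r, Rtn4rl2 and Lingo1 are high in most DG and CA libraries and low in most NAc and SVZ libraries, with DG Sal 3 among the low ones and NAc Sal 4 above its group.

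The 2 inhibitors had the most even levels. Rtn4 ranged from 415 CPM in SVZ Sal 2 to 769 CPM in SVZ Sal 1, a ratio of 1.85 over 32 libraries. Omg ranged from 80.9 CPM in SVZ METH 3 to 193 CPM in DG Sal 2, a ratio of 2.39. The group means of Rtn4 lay between 511 ± 64.9 CPM (SD, n = 4) in DG Sal and 605 ± 172 CPM in SVZ METH, and those of Omg between 106 ± 13.9 CPM in SVZ Sal and 133 ± 42.1 CPM in DG Sal. The 3 libraries with the highest Rtn4 were SVZ Sal 1 (769 CPM), SVZ METH 2 (764 CPM) and SVZ METH 4 (744 CPM), the same ones with the highest thalamic and oligodendrocyte sums. The part of those cells in the level of Rtn4 was not tested.

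Rtn4r, the Nogo receptor itself, was low in 3 of 4 NAc Sal libraries (3.47, 4.95, 4.44 and 37.4 CPM in replicates 1 to 4) and between 2.53 and 18.2 CPM in NAc METH (17.7, 2.53, 12.1 and 18.2 CPM). In the DG it was 75.4, 105, 5.43 and 49.2 CPM after saline and 79.5, 82.5, 54.8 and 82.2 CPM after METH. DG Sal 3 thus had the level of a NAc library. In the CA it was high in every library, with 87.9, 62.2, 82.4 and 88.7 CPM after saline and 79.2, 60.1, 65.9 and 71.5 CPM after METH. In the SVZ it was 37.8, 5.47, 4.31 and 5.19 CPM after saline and 21.9, 37.5, 11.1 and 17.4 CPM after METH, and the treatments overlapped in all 4 regions. In bulk tissue, fewer cells of a type and less RNA per cell cannot be told apart.

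Rtn4rl2 varied more than any of the other five, with an SD of 2.21 on the scale of log2(CPM + 1) over 32 libraries, against 1.62 for Rtn4r, 0.90 for Lingo1, 0.62 for Rtn4rl1, 0.27 for Omg and 0.25 for Rtn4. It was 1.16, 0.652, 1.74 and 21.3 CPM in NAc Sal and 12.1, 0.843, 2.93 and 9.61 CPM in NAc METH. In the DG it was 50.8, 37.4, 0.568 and 35.8 CPM after saline and 47.4, 42.3, 25.2 and 41.3 CPM after METH. DG Sal 3, with 9 reads, stood with the NAc libraries again. The CA gave 46.0, 48.0, 52.2 and 42.2 CPM after saline and 40.6, 75.5, 38.8 and 65.2 CPM after METH, so the lowest CA library lay above every NAc and SVZ library. In the SVZ it was spread widely, with 1, 119, 67 and 4 reads after saline and 366, 5, 8 and 10 reads after METH.

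Rtn4r and Rtn4rl2 parted in several SVZ libraries. SVZ Sal 1, METH 2 and METH 4 had 803, 727 and 376 reads of Rtn4r and 1, 5 and 10 reads of Rtn4rl2. SVZ METH 3 and Sal 4 also had far fewer reads of Rtn4rl2 (8 and 4) than of Rtn4r (250 and 93), while SVZ METH 1, Sal 2 and Sal 3 had 366, 119 and 67 reads of Rtn4rl2 beside 419, 117 and 89 of Rtn4r. SVZ Sal 1, METH 2 and METH 4 had glutamatergic sums of 278, 229.5 and 175 CPM and the high thalamic sums given above, and SVZ METH 3 had 88.8 CPM of glutamatergic and 468 CPM of thalamic markers. SVZ METH 1 had 859 CPM of glutamatergic and 136 CPM of thalamic markers. What those cells contribute to either receptor was not tested.

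Rtn4rl1 was the receptor gene with the least difference between regions. Its group means were 64.7 ± 20.0 CPM (SD, n = 4) in NAc Sal, 56.4 ± 23.3 CPM in NAc METH, 79.5 ± 31.2 CPM in SVZ Sal and 72.1 ± 22.6 CPM in SVZ METH. In the CA they were 129 ± 28.9 CPM after saline and 112.2 ± 32.6 CPM after METH. The DG gave 99.3, 109, 47.1 and 70.5 CPM after saline and 155, 109, 108 and 108 CPM after METH, with METH above all saline libraries but for DG Sal 2, which lay within the METH range.

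Lingo1, the co-receptor, was 77.9, 68.0, 74.6 and 186 CPM in NAc Sal and 134, 64.4, 92.1 and 119 CPM in NAc METH. In the DG it was 365, 394, 69.0 and 174 CPM after saline and 207, 183, 212 and 219.6 CPM after METH. The saline DG libraries therefore lay on both sides of the METH ones. In the CA it was 223, 341, 248 and 362 CPM after saline and 356, 342, 245 and 352 CPM after METH, and in the SVZ 166, 81.6, 71.4 and 63.2 CPM after saline and 158, 145, 61.4 and 112.2 CPM after METH.

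Per kilobase of gene model, which lets genes be compared, Rtn4 was the highest of the 6 in CA Sal at 122 ± 17.5 CPM per kb (SD, n = 4), beside Lingo1 at 119 ± 27.8 CPM per kb. These differed by less than their spread. Omg followed at 66.3 ± 9.22 CPM per kb, then Rtn4r at 46.9 ± 7.24, Rtn4rl1 at 37.5 ± 8.36 and Rtn4rl2 at 36.1 ± 3.19 CPM per kb, the last 2 again within their spread. In NAc Sal, Rtn4 had 109 ± 13.1 and Omg 62.6 ± 9.26 CPM per kb, followed by Lingo1 at 41.4 ± 23.0, Rtn4rl1 at 18.7 ± 5.77, Rtn4r at 7.34 ± 9.67 and Rtn4rl2 at 4.77 ± 7.73 CPM per kb. There, Omg and Lingo1 lay within the larger of their SDs of each other, and so did Rtn4r and Rtn4rl2. The order in SVZ Sal was that of NAc Sal, with 108 ± 35.6 CPM per kb for Rtn4 and 1.74 ± 2.03 CPM per kb for Rtn4rl2. In DG Sal, Rtn4rl2 and Rtn4rl1 were level at 23.9 ± 16.5 and 23.6 ± 8.15 CPM per kb, below Rtn4r at 34.3 ± 24.6 CPM per kb, and these 3 did not differ beyond their spread.

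Whether METH changed these genes was asked in each region with edgeR's quasi-likelihood test on 4 against 4 libraries, calling a gene at a false discovery rate (FDR, the p adjusted over all genes tested) under 0.01 and a fold above 1.5. Of the 6 genes, 0 were called in the NAc, DG or CA, where all 6 passed the filter on low counts, and 0 of the 5 that passed were called in the SVZ. The same was true of the background: 0 of 14771 genes were called in the NAc, 0 of 14800 in the DG, 0 of 14612 in the CA and 0 of 15579 in the SVZ, a percentage of 0 in each. DESeq2 called none of the 6 either, beside 0.00444% of genes in the NAc, 0.783% in the DG, 0.0446% in the CA and 0.00873% in the SVZ. At an unadjusted p under 0.05, 2 of the 6 were higher after METH in the DG and 0 were lower, while 6.35% of all genes were higher and 6.42% lower, 12.8% in all. None of the 6 passed that threshold in the NAc (2.42% of genes higher and 0.968% lower, 3.39% in all), in the CA (4.37% and 2.79%, 7.16% in all) or in the SVZ (1.19% and 1.39%, 2.58% in all).

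In the NAc the log2 fold changes of METH over saline lay between -0.17 (SE 0.37) for Rtn4rl1 and 0.067 (SE 0.12) for Omg, with Lingo1 at 0.025 (SE 0.36). The inhibitors were measured closely there, with a 95% interval of -0.28 to 0.29 for Rtn4. The interval of Rtn4r ran from -1.94 to 1.97 and that of Rtn4rl2 from -2.55 to 2.61, so changes of several fold in either direction could not be seen. Without NAc Sal 4 the log2 fold change of Rtn4r was 1.58 and that of Rtn4rl2 2.46, in place of 0.017 and 0.032, with an FDR of 0.951 in edgeR's test for both. Glutamatergic sums of NAc libraries moved the same way, with 239, 77.8, 156 and 1019.9 CPM in Sal 1 to 4 and 719.8, 98.2, 229 and 662 CPM in METH 1 to 4.

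In the DG, Rtn4rl1 had a log2 fold change of 0.58 (SE 0.24, edgeR unadjusted p = 0.0429, FDR 0.378) and Rtn4 one of 0.26 (SE 0.11, edgeR unadjusted p = 0.047, FDR 0.387). Rtn4 was 529, 592, 483 and 441 CPM after saline and 562, 582, 633 and 643 CPM after METH, so DG Sal 2 lay among the METH libraries. Leaving out 1 library at a time gave log2 fold changes of 0.22 to 0.32 for Rtn4 and of 0.40 to 0.73 for Rtn4rl1, and neither passed in any. Lingo1 was -0.25 (SE 0.44) and Omg -0.13 (SE 0.20), and both turned when replicates 1 and 2 of both treatments, whose library numbers go against their labels, were left out, to 0.81 and 0.30. Rtn4r was 0.38 (SE 0.65) and Rtn4rl2 0.35 (SE 0.83), with 95% intervals of -1.09 to 1.86 and -1.56 to 2.26. Only 1 sequencing run held both DG treatments, and its only saline library was DG Sal 3, which had markers of another region, so no within-run value is given for the DG.

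In the CA, where replicates were closest, the largest fall and rise were those of Rtn4r at -0.21 (SE 0.13, 95% interval -0.50 to 0.071) and of Rtn4rl2 at 0.22 (SE 0.21, 95% interval -0.25 to 0.70). Rtn4 was -0.18 (SE 0.12), Rtn4rl1 -0.20 (SE 0.23), Lingo1 0.14 (SE 0.18) and Omg -0.0018 (SE 0.16). No gene of the 6 had an FDR below 0.721 in edgeR's test. In the SVZ the values ran from -0.13 (SE 0.29) for Rtn4rl1 to 0.75 (SE 0.76, 95% interval -0.99 to 2.49) for Rtn4r, with Rtn4 at 0.25 (SE 0.27), Omg at 0.31 (SE 0.23) and Lingo1 at 0.33 (SE 0.38). Rtn4rl2 did not pass the filter there. The SEs of the SVZ treat its 4 METH libraries as independent, though pairs of them share a library number and may come from 1 animal.

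Averaged over the 4 regions in 1 fit of 32 libraries, the METH effect lay between 0.015 (SE 0.16) for Rtn4rl1 and 0.43 (SE 0.56) for Rtn4rl2, and 0 of the 6 genes were called, nor were any of 16122 genes (0%). None of the 6 had an unadjusted p under 0.05 there, as did 4.29% of genes that were higher and 3.54% that were lower, 7.83% in all. Rtn4 had 0.078 with a 95% interval of -0.10 to 0.26, Omg 0.057 (SE 0.098), Lingo1 0.057 (SE 0.20) and Rtn4r 0.23 (SE 0.37). The METH effect in the DG less that in the CA was 0.43 (SE 0.16, edgeR unadjusted p = 0.0167, FDR 0.228) for Rtn4 and 0.78 (SE 0.36, edgeR unadjusted p = 0.049, FDR 0.323) for Rtn4rl1. Rtn4r had 0.59 (SE 0.70), Rtn4rl2 0.12 (SE 0.89), Omg -0.14 (SE 0.27) and Lingo1 -0.40 (SE 0.51). No gene of the 6 went the other way at that p, which 15.4% of 15308 genes passed, with 7.26% upward and 8.11% downward. None of the 6 was called, beside 0% of all genes.

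Among METH libraries, a region pair was called at an FDR under 0.01 and a fold above 2 by edgeR's quasi-likelihood test. Rtn4r was higher in the CA than in the NAc by 2.41 on the log2 scale (SE 0.44, FDR 0.0059), and Lingo1 by 1.62 (SE 0.26, FDR 0.00268), which are 2 of 6 genes beside 1.27% of 15615. Rtn4r was also higher in the DG than in the NAc, by 2.55 (SE 0.45, FDR 0.0022), as 1 of 6 beside 3.1% of all genes. Lingo1 was higher in the CA than in the SVZ, by 1.39 (SE 0.25, FDR 0.00287), as 1 of 6 beside 3.91%. In the DG against the SVZ 0 of 6 were called, beside 3.94% of all genes, with Rtn4r at 1.74 (SE 0.43, FDR 0.0113) and Lingo1 at 0.76 (SE 0.25, FDR 0.0424).

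The call for Rtn4r in the DG over the NAc held with each of the 16 METH libraries left out in turn (FDR up to 0.00772) but not in the single fit of 32 libraries (FDR 0.0331). That for Rtn4r in the CA over the NAc was lost without NAc METH 1, 3 or 4 or any 1 of the 4 CA METH libraries, with an FDR of at most 0.0203 in those fits. It was also lost with the replicate number as a block, at 2.43 (SE 0.47, FDR 0.0148) beside 0.845% of all genes called, and in the single fit of 32 libraries (FDR 0.0604). Lingo1 in the CA over the NAc was lost without NAc METH 2, CA METH 2 or CA METH 4 (FDR at most 0.0123), and over the SVZ without CA METH 4 or SVZ METH 4 (FDR at most 0.0115). Its log2 fold changes with 1 library left out were 1.46 to 1.78 and 1.18 to 1.56. Both calls of Lingo1 were lost in the single fit of 32 libraries (FDR 0.0184 and 0.0143). With each pair of SVZ METH libraries of 1 number summed to 1 library, which was decided after the data were seen, Lingo1 was still called in the CA over the SVZ, at 1.42 (SE 0.28, FDR 0.00633) beside 2.97% of all genes. That call of Lingo1 was lost without NAc METH 3, SVZ METH 2 and SVZ METH 4, a fit that was also decided after the data were seen. Rtn4rl2, not called with all libraries, passed in the CA over the NAc in 1 of the 16 fits with 1 library left out. Within the 2 sequencing runs that held both regions, METH libraries of the CA exceeded those of the NAc by 2.13 and 3.11 for Rtn4r and by 1.48 and 1.90 for Lingo1 (2 against 2 libraries, difference of mean log2(CPM + 1)).

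Rtn4rl2 had the largest differences among METH libraries and the widest errors. It was 3.08 (SE 1.05, FDR 0.0891) in the CA over the NAc, 3.405 (SE 1.06, FDR 0.0303) in the CA over the SVZ, 2.60 (SE 1.03, FDR 0.118) in the DG over the NAc and 2.93 (SE 1.04, FDR 0.0556) in the DG over the SVZ by edgeR's test, and was not called in any of them. All 4 CA METH and all 4 DG METH libraries lay above all NAc METH and all SVZ METH libraries for it, as for 9.87% of genes in the CA over the NAc, 14% in the CA over the SVZ, 8.95% in the DG over the NAc and 10.5% in the DG over the SVZ. Without SVZ METH 1, the only library of its group above 1 CPM, the difference of the CA over the SVZ was 7.17 with an FDR of 8.7e-05, and that of the DG over the SVZ was 6.70 with an FDR of 0.00013. Rtn4rl1 had 1.08 (SE 0.32, FDR 0.0417) in the DG over the NAc and 0.96 (SE 0.32, FDR 0.0848) in the CA over the NAc.

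Among saline libraries 0 of 6 genes were called in each of the 6 region pairs, beside 0.812% of 15515 genes in the CA over the SVZ, 0.0193% in the DG over the SVZ and 0% in the other pairs. DESeq2 called 2 in the CA over the SVZ (3.32% of all genes) and 0 in the other pairs (2.26% in the CA over the NAc, 0.468% in the DG over the SVZ, 0.187% in the NAc over the SVZ, 0.051% in the DG over the NAc and 0% in the DG over the CA). At an unadjusted p under 0.05, 4 of 6 were higher in the CA than in the NAc (10.5% of all genes), 4 of 6 in the CA than in the SVZ (12.3%), 2 of 6 in the DG than in the NAc (6.32%) and 3 of 6 in the DG than in the SVZ (7.93%), and none was lower. These were always receptor or co-receptor genes. In the DG against the CA only Rtn4rl1 passed, and it was lower, at -0.66 (SE 0.30, FDR 0.556), beside 5.32% of genes higher and 3.61% lower (8.93% in all), and in the NAc against the SVZ none did, beside 4.16% higher and 8.46% lower (12.6% in all). The largest was Rtn4rl2 in the CA over the SVZ, with 4.32 (SE 1.30, FDR 0.0427), followed there by Rtn4r with 2.57 (SE 0.94, FDR 0.0798) and Lingo1 with 1.58 (SE 0.48, FDR 0.0455). In the CA over the NAc, Rtn4rl2 had 2.87 (SE 1.21, FDR 0.163), Rtn4r 2.63 (SE 0.95, FDR 0.11), Lingo1 1.49 (SE 0.48, FDR 0.0819) and Rtn4rl1 0.97 (SE 0.30, FDR 0.073). For these 4 genes every CA Sal library lay above every NAc Sal library, as it did for 11% of all genes.

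Within 1 run, DG Sal 1, 2 and 4 exceeded NAc Sal 3 and 4 in Rtn4r by 2.36 in mean log2(CPM + 1), and in another DG Sal 3 exceeded NAc Sal 1 and 2 by 0.32. The first value includes NAc Sal 4, with the highest glutamatergic sum of the NAc, and the second rests on DG Sal 3, with markers of another region. These values therefore cannot show whether the difference between the regions depends on the run.

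NAc Sal 4 had the highest glutamatergic sum of the NAc but a striatal sum within the NAc range. DG Sal 3 had markers of another region. Both libraries were left out in a fit that was decided on after the data were seen. In it 3 of 6 genes were called in the CA over the NAc: Rtn4rl2 at 5.31 (SE 0.97, FDR 0.00803), Rtn4r at 4.19 (SE 0.75, FDR 0.00755) and Lingo1 at 1.97 (SE 0.35, FDR 0.00752). Of all genes, 1.75% were called in that fit. NAc Sal 4 had the highest level of NAc Sal in each of these 3 genes, so leaving it out by itself widens their differences. SVZ Sal 1, with its high thalamic markers, was kept. In the CA over the SVZ, Rtn4rl2 (4.32, FDR 0.00564) and Lingo1 (1.58, FDR 0.00843) were called, beside 2.47% of all genes. In the DG over the NAc, 0 were called beside 0.499%, with Rtn4rl2 at 5.13 (FDR 0.0167), Rtn4r at 4.12 (FDR 0.0161) and Lingo1 at 2.05 (FDR 0.0131). With all saline libraries these were 2.28 (SE 1.19, FDR 0.473), 2.17 (SE 0.93, FDR 0.407) and 1.26 (SE 0.48, FDR 0.376) by edgeR's test. DG Sal 3 had the lowest level of DG Sal in each of these genes, so leaving it out also widens the differences of the DG by itself.

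The 2 inhibitors did not follow this pattern. Among saline libraries their log2 differences in the 6 region pairs lay between -0.18 and 0.29 and among METH libraries between -0.29 and 0.26, and the 95% interval held 0 in each of the 24 cases. For the same genes the widest 95% interval ended at -0.63 and 0.66, so a difference of 2-fold between any pair of regions lay outside them all. Rtn4 in the DG over the NAc among METH libraries, at 0.22, was a case with no overlap between the groups, as for 8.95% of all genes. The DG against the CA, both parts of the hippocampus, and the NAc against the SVZ gave 0 calls of 6 in either treatment, beside 0% and 0.0384% of all genes among METH libraries and 0% in both among saline libraries. The lowest p in these pairs was that of Lingo1 in the DG against the CA among METH libraries, at -0.63 (SE 0.25, edgeR unadjusted p = 0.0248, FDR 0.378), where every DG library (183 to 219.6 CPM) lay below every CA library (245 to 356 CPM), as for 5.5% of all genes. Region pairs share libraries, so their values are not independent of each other.

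**Figure D2:**
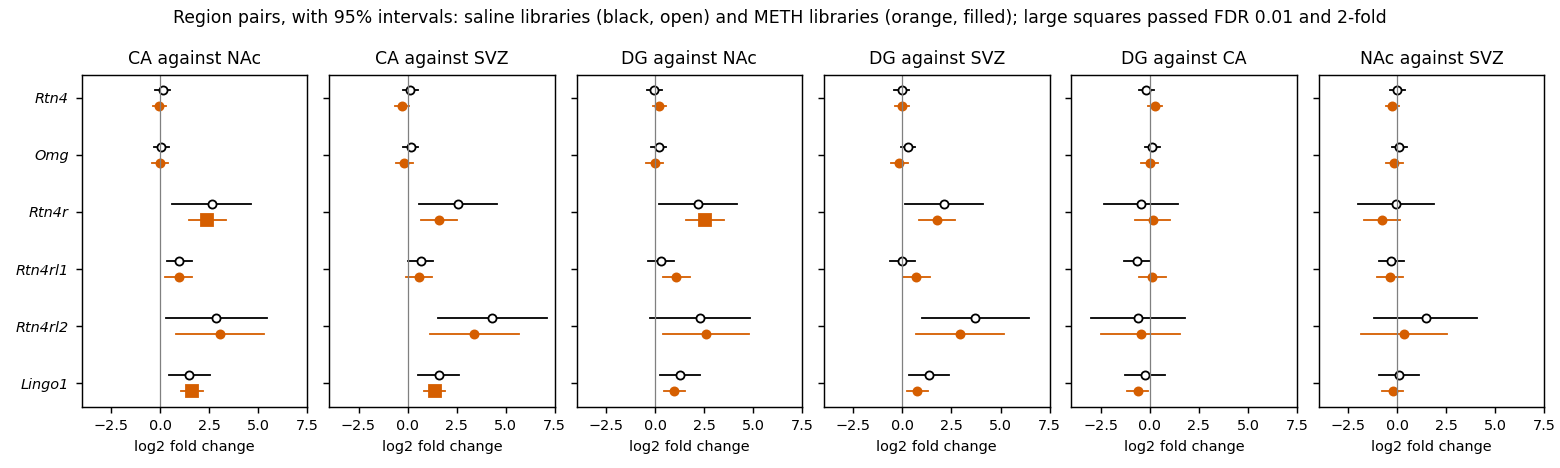
Log2 fold change between regions (points) with 95% intervals (lines) for each gene, among 16 saline libraries (black, open) and among 16 METH libraries (orange, filled); large squares passed an FDR of 0.01 and a 2-fold change. Rtn4 and Omg lie within 0.29 of 0 in all pairs, with intervals that hold 0, and Rtn4r, Rtn4rl2 and Lingo1 lie to the right in the 4 pairs of a hippocampal with another region.

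The make-up of the Nogo receptor transcripts was compared by the share that each of the 3 genes takes of their summed counts per kilobase. Rtn4rl1 made up 71.0 ± 23.6% (SD, n = 4) in NAc Sal and 74.4 ± 9.93% in SVZ Sal, but 30.9 ± 4.42% in CA Sal. Rtn4rl2 made up 9.99 ± 11.5% in NAc Sal, 6.90 ± 7.96% in SVZ Sal, 24.2 ± 15.5% in DG Sal and 30.1 ± 2.77% in CA Sal. By library its share was 3.38% to 27.2% in NAc Sal, 0.0616% to 16.7% in SVZ Sal, 2.53% to 35.8% in DG Sal and 27.7% to 34.1% in CA Sal. The CA Sal libraries did not overlap those of the NAc or the SVZ.

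The share of Rtn4rl2 was 20.1 percentage points higher in CA Sal than in NAc Sal and 23.2 points higher than in SVZ Sal, each with an exact two-sided permutation p of 0.0286 (n = 4 and 4), the smallest this design allows, and 0.0857 when adjusted over the 6 region pairs. The other 4 pairs had exact permutation p-values of 0.114 to 0.714. METH moved the share by 5.04 points in the NAc, 3.12 in the DG, 5.83 in the CA and 2.49 in the SVZ, with exact two-sided permutation p-values of 0.543, 0.914, 0.143 and 0.771, and 0.571 or more when adjusted over the 4 regions. Rtn4r made up 39.0 ± 5.70% in CA Sal and 36.2 ± 9.07% in CA METH.

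**Figure D3:**
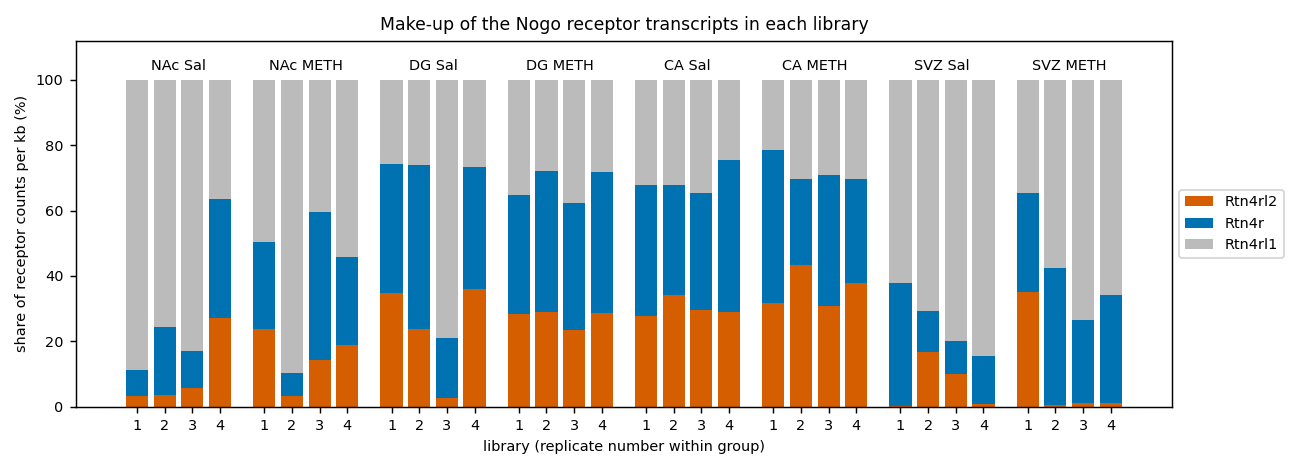
Share in percent of each Nogo receptor gene in the summed counts per kilobase of the 3, in each of the 32 libraries. In the CA each of the 3 genes takes between 21.5% and 46.9% in all 8 libraries, and the gene with the largest share differs between libraries. In most NAc and SVZ libraries Rtn4rl1 (grey) takes the most, and DG Sal 3 (Rtn4rl2 at 2.53%) looks like a NAc library.

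Across libraries of a region, the receptor genes lay beside the sum of the 6 glutamatergic markers, among them Slc17a7, which codes for a vesicular glutamate transporter, and Neurod2. That sum was 77.8 to 1019.9 CPM in NAc Sal, 98.2 to 719.8 in NAc METH, 84.4 to 2544 in DG Sal, 2490.4 to 3335 in DG METH, 2681 to 4096 in CA Sal, 2097 to 2604 in CA METH, 81.0 to 438 in SVZ Sal and 88.8 to 859 in SVZ METH. Over the 8 NAc libraries, Pearson's r of log2 levels with that sum was 0.96 for Rtn4rl2, 0.95 for Lingo1, 0.89 for Rtn4r, 0.41 for Rtn4rl1, -0.23 for Rtn4 and -0.45 for Omg. Over the 8 DG libraries it was 0.98 for Rtn4rl2 and 0.97 for Rtn4r, and DG Sal 3 lay lowest in both genes and in the sum. Over the 8 SVZ libraries it was 0.78 for Rtn4rl2 and 0.34 for Rtn4r, and over the 8 CA libraries, where the sum varied least, -0.12 and 0.69, with Lingo1 at -0.47. Rtn4 had r of 0.84 with that sum over the CA and 0.51 over the DG libraries. With the sum of 8 oligodendrocyte markers, r was 0.82 for Rtn4 and 0.92 for Omg over the NAc libraries, 0.92 and 0.84 over those of the SVZ, 0.66 and 0.83 over those of the CA, and -0.14 and 0.00047 over those of the DG. Rtn4r had r of 0.76 with the oligodendrocyte sum over the SVZ libraries, and Rtn4rl1 one of 0.89 with the sum of striatal markers over the NAc libraries. The points share their library's depth and its mix of cells, and the part of glutamatergic neurons or oligodendrocytes in the level of a gene was not tested.

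**Figure D4:**
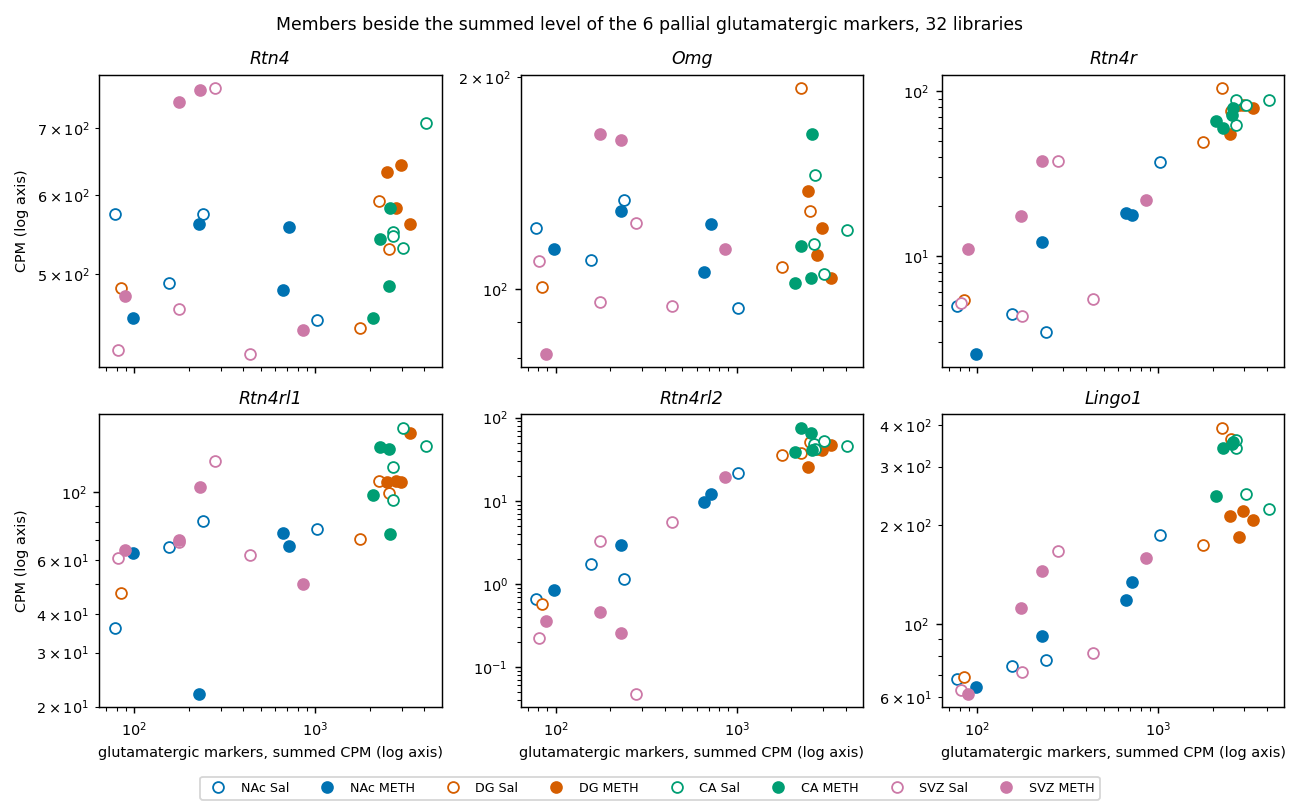
Level of each gene in CPM (log axis) beside the summed CPM of the 6 glutamatergic markers (log axis) in the 32 libraries; colour gives the region, open points are saline and filled points METH. Rtn4rl2 rises with the sum apart from SVZ Sal 1, METH 2 and METH 4, which lie below it with 0.0471 to 0.464 CPM and lie above the other libraries of a like sum for Rtn4r and Lingo1, and Rtn4 and Omg show no such rise.

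The genes whose log2(CPM + 1) was most like that of each gene over the 32 libraries, out of 16122, were described by Pearson's r. For Rtn4rl2 they were Neurod2 (0.98) and Neurod1 (0.96), which code for transcription factors of neuronal differentiation, and Nptxr (0.96), a receptor of neuronal pentraxins; Neurod2 is also 1 of the 6 markers above. For Rtn4r they were Nrn1 (0.98), which codes for neuritin, Olfm1 (0.98), which codes for a secreted olfactomedin, and the unnamed gene AABR07027407.1 (0.97). For Lingo1 they were Oxr1 (0.95), Mical2 (0.94), which acts on actin, and Shank1 (0.94), a scaffold of the postsynaptic density. Rtn4rl1 came closest to Lamb1 (0.88) and Nsmf (0.88), Rtn4 to Map1lc3b (0.92), Eif5a2 (0.91) and Agpat5 (0.89), and Omg to Lin54 (0.85), Rab4a (0.83) and Zfp91 (0.82). Among the 6 themselves, r was 0.93 for Rtn4r with Lingo1, 0.86 for Rtn4rl2 with Lingo1, 0.81 for Rtn4r with Rtn4rl2 and 0.66 for Rtn4 with Omg, while between an inhibitor and a receptor or co-receptor gene it did not exceed 0.38.

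Other genes of the pathway were counted in 4 lists: 14 ligands and partners of the receptors, 9 genes of RhoA signaling, the other 3 reticulons, and 9 genes of chondroitin sulfate proteoglycans and their receptors. Of the 30 tested in the NAc and the DG, 29 in the CA and 31 in the SVZ, 0 had an FDR under 0.05 for METH against saline by edgeR's test. Of all genes, 0.00676% had such an FDR in the DG and 0% in the NAc, the CA and the SVZ. At an unadjusted p under 0.05 in the DG, 4 of 9 proteoglycan genes were higher and 1 lower, beside 6.35% and 6.42% of all genes, with a median log2 fold change of 0.23 against -0.011 for all genes. Of the tested ligands and partners 2 of 9 were higher and 1 lower, of the RhoA genes 0 of 9 higher and 1 lower, and of the reticulons 0 of 3 in either direction. The higher genes of the proteoglycan list included Acan at 0.50 (SE 0.18, FDR 0.298), Ptprs, a receptor of these proteoglycans, at 0.44 (SE 0.17, FDR 0.345) and Bcan at 0.28 (SE 0.11, FDR 0.323) by edgeR's test. In the CA 3 of 9 proteoglycan genes were higher and 0 lower, beside 4.37% and 2.79% of all genes, with Cspg4 at 0.45 (SE 0.12, FDR 0.669) and a median of 0.12 against 0.0051. Ngfr, a receptor that signals with Lingo1, had -2.67 (SE 0.91, FDR 0.287) in the DG, 1.75 (SE 0.51, FDR 0.669) in the CA and 2.93 (SE 1.04, FDR 0.979) in the SVZ. Its levels were low or scattered. They were 0.592 ± 0.322 CPM (SD, n = 4) in DG METH against 3.78 ± 4.75 in DG Sal, a group that holds DG Sal 3. In the CA they were 1.62 ± 0.727 CPM after METH against 0.505 ± 0.357 after saline, and in the SVZ 16.5 ± 17.1 against 2.15 ± 1.19 CPM.

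Between regions, more of these genes passed, and so did more of all genes. Among saline libraries 13.2% of all genes had an FDR under 0.05 in the CA against the SVZ and 5.1% in the CA against the NAc. Among METH libraries 25.7% did in the CA against the SVZ, 7.67% in the CA against the NAc and 12.5% in the DG against the NAc. Ptprs was higher in the CA than in the SVZ by 0.87 (SE 0.16, FDR 0.00892) among saline and by 0.89 (SE 0.14, FDR 0.00137) among METH libraries in edgeR's test, and higher in the CA than in the NAc by 0.61 in both (FDR 0.0399 and 0.0159). Rock2, a kinase that acts below RhoA, was higher in the CA than in the SVZ by 0.79 (SE 0.22, FDR 0.0335) among saline and by 0.88 (SE 0.17, FDR 0.0036) among METH libraries. Rhoa itself was lower in the CA than in the SVZ among METH libraries, at -0.38 (SE 0.089, FDR 0.00839). Rock1 was lower in the DG than in the NAc among METH libraries, at -0.46 (SE 0.098, FDR 0.00712). Olfm1, a secreted partner of the Nogo receptor, was higher in the DG than in the NAc among METH libraries by 1.79 (SE 0.35, FDR 0.0043) and in the CA than in the NAc by 1.53 (SE 0.35, FDR 0.0159). Lgi1, a secreted protein of synapses, was higher in the CA than in the SVZ by 1.23 (SE 0.34, FDR 0.0312) among saline and by 1.44 (SE 0.24, FDR 0.00169) among METH libraries. Mag, the gene of myelin-associated glycoprotein, was lower in the CA than in the SVZ among METH libraries, at -2.20 (SE 0.53, FDR 0.0103), where oligodendrocyte markers summed to 2442 to 8735 CPM in CA METH and 8658 to 27891 CPM in SVZ METH. Vcan and Ptprd of the proteoglycan list were also lower there, at -0.82 (FDR 0.0225) and -0.90 (FDR 0.0318). Ngfr was lower in the CA than in the NAc among saline libraries, at -5.83 (SE 1.13, FDR 0.0298), with 0.505 ± 0.357 against 27.0 ± 21.8 CPM. Over the 4 lists, in the CA against the SVZ among METH libraries, 9 of 31 genes were higher and 6 lower at an FDR under 0.05, beside 25.7% of all genes in either direction. The other reticulons were all higher there, Rtn1 by 0.74 (FDR 0.0068), Rtn3 by 0.44 (FDR 0.012) and Rtn2 by 0.39 (FDR 0.0291), while Rtn4 was at -0.29 (SE 0.16, FDR 0.203).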

How the data were processed

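The authors sequenced libraries of RNA freed of ribosomal RNA, trimmed the reads (cutadapt 2.7), mapped them to rn6 (STAR 2.5.2b) and deposited raw counts of reads per gene and library, made, per the file headers, with featureCounts 1.6.3 and an Ensembl annotation (release 95), without strand and with a mapping quality of at least 10. Reads shared by near-identical genes cannot be told apart. From these deposited counts, edgeR 4.0.16 (R 4.3.3) gave upper-quartile scaling, filterByExpr, and quasi-likelihood tests, adjusted by Benjamini-Hochberg over all genes tested, in 8 libraries per region for METH against saline, in 16 of one treatment for region pairs, in 16 of the DG and CA for their difference and in all 32 for the mean effect. SE is the log2 fold change over the root of F. CPM use upper-quartile library sizes of the 32 libraries. The labels tie no library to an animal, so p-values measure the spread between libraries. The methods took the 4 regions from each brain, and library numbers recur in the NAc and CA, so region pairs may share animals. The replicate number was a block in an alternative. Libraries of 1 replicate carry the same number in the NAc and CA, but only some do in the DG and none in the SVZ. In pairs with the DG or the SVZ the block therefore cannot show whether shared animals matter. Shares were tested with exact permutations (scipy 1.17.1). The 48 pairs of libraries of a group all differed beyond sampling noise. The fits were checked on simulated data with 200 changed genes, all of them well counted. That check does not cover low counts, such as those of Rtn4rl2 in the SVZ, or libraries that differ in tissue mix. Alternatives were TMM scaling, DESeq2 1.42.0, no filter, covariates, 2 or 4 RUVr factors, 1 fit of 32 libraries and libraries left out. All 6 genes were named. Of the pathway lists, genes were named from among the up to 3 with the lowest p under 0.05 in a list and comparison, and not all of these were named. The rule for likeness was the 3 genes with the highest r for each of the 6. A gene that these rules would name is not reported here. Genes and lists were chosen with earlier results of these data known. Of the listed names Amigo3, Lingo2, Adgrb1, Man1a, Foxj1 and Pecam1 had no row here. A count matrix of the series was not used.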

Additional observations from a re-analysis of the deposited data

Results flagged for a closer look

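Of 56 sets of 4 libraries (6 genes and the share of Rtn4rl2 in 8 groups), 14 held a library far from the other 3 by Dixon's test, where chance flags about 2.8. They are not independent, since 11 of the 14 came from 4 libraries. NAc Sal 4 was high in Rtn4r (37.4 CPM), Rtn4rl2 (21.3 CPM), Lingo1 (186 CPM) and the share of Rtn4rl2 (27.2%), and had the highest glutamatergic sum of the NAc. SVZ Sal 1 was high in Rtn4 (769 CPM), Rtn4r (37.8 CPM) and Rtn4rl1 (126 CPM), and had the highest thalamic sum of all libraries. SVZ METH 1 was high in Rtn4rl2 (19.1 CPM) and its share (34.95%), and had the highest glutamatergic sum of the SVZ. DG METH 3 was low in Rtn4r (54.8 CPM) and in the share of Rtn4rl2 (23.4%), and had 6040 CPM of choroid plexus markers against 6.82 to 29.3 CPM in the other DG METH libraries. Rtn4 was high in CA Sal 1 (709 CPM), Rtn4rl1 high in DG METH 1 (155 CPM) and Lingo1 low in CA METH 3 (245 CPM). The part of these cells in the values was not tested.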

How the results depend on the processing

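At this depth Rtn4rl2 in the SVZ (from 1 read) could not be measured closely, and region and run cannot be told apart for the SVZ. For METH against saline, the mean effect and the DG less the CA, none of the 6 genes was called under the 816 alternatives run for 35 values, with a lowest FDR of 0.0138 (Rtn4r in the DG with 4 RUVr factors, where 0% of genes were called). Of all genes, DESeq2 called up to 0.783% (DG), and 4 RUVr factors 0.21% in the NAc, 0.116% in the SVZ, 0.835% in the CA and 3.25% in the DG less the CA. The counts of calls between regions did move, for causes not tested. Among METH libraries, in the CA over the NAc, the CA over the SVZ, the DG over the NAc and the DG over the SVZ, calls were 2, 1, 1 and 0; at an FDR under 0.05 with no fold threshold the last 3 were 3, 3 and 2 (25.7%, 12.5% and 22.5% of all genes), with DESeq2 3, 3 and 1 (5.21%, 3.63% and 4.47%), with 4 RUVr factors all were 4, 3, 4 and 2 (4.8%, 10.6%, 6.71% and 9.47%), with 2 RUVr factors the CA and DG over the SVZ had 3 and 2 (8.5% and 7.3%), and in 1 fit of 32 libraries the first 3 were 0, 0 and 0 (0.775%, 4.2% and 2.43%). Without NAc METH 3, SVZ METH 2 and SVZ METH 4 (chosen after seeing the data) the CA over the SVZ had 0 (2.2%). With SVZ METH libraries of 1 number summed (chosen after seeing the data) all 4 counts were as with all libraries. Among saline libraries the CA over the SVZ went from 0 to 2 at an FDR under 0.05 (13.2% of all genes), 2 with DESeq2 (3.32%), 2 with 2 RUVr factors (4.84%), 3 with 4 (7.11%), 1 in the fit of 32 libraries (3.68%) and 2 without NAc Sal 4 and DG Sal 3 (2.47%); the CA over the NAc to 2 and 4 with 2 and 4 RUVr factors (3.36% and 5.56%) and 3 without those libraries (1.75%); and the DG over the NAc and over the SVZ to 2 and 2 with 4 RUVr factors (1.59% and 2.11%). Leaving out single METH libraries gave 0 to 3 calls in the CA over the NAc (0 without CA METH 2 or CA METH 4), 0 to 2 in the CA over the SVZ (2 without NAc METH 2 or SVZ METH 1), 1 to 2 in the DG over the NAc (2 without SVZ METH 1), 0 to 1 in the DG over the SVZ (1 without NAc METH 2, SVZ METH 1 or SVZ METH 2) and 0 to 1 in the NAc over the SVZ (1 without SVZ METH 1). With the replicate block, the CA over the NAc had 1 call among METH libraries in place of 2, and no other count changed. In pairs with the DG or the SVZ that block joined libraries of unlike numbers, so it cannot show whether shared animals matter there. For METH against saline, same-numbered Sal and METH libraries had correlations of deviations of -0.777 to 0.391 (7 of 16 over 0.1), and 3 of 16 were each other's best match, so the numbers do not pair saline with METH libraries. Between regions they may, since library numbers recur in the NAc and CA.

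Values that changed sign lay near 0 but for a few. In the NAc, Rtn4 went to -0.030 (TMM), -0.034 (DESeq2), -0.019 (no filter) and -0.011 (1 fit of 32), Rtn4r to -0.010 (TMM) and -0.0027 (DESeq2) and Lingo1 to -0.0050 (TMM) and -0.0035 (DESeq2); without NAc Sal 4 and NAc METH 3 (chosen after seeing the data), Rtn4 went to -0.11, Omg to -0.066 and Rtn4rl1 to 0.19. In the DG, Lingo1 went to 0.027 and 0.039 with 2 and 4 RUVr factors. Without replicates 1 and 2 of the DG, Omg and Lingo1 went to 0.30 and 0.81, and their DG less CA values to 0.30 and 0.67. Omg in the CA went to 0.00084 in 1 fit of 32. Rtn4rl1 in DG Sal over SVZ Sal (0.0016) went to -0.0075 (replicates 1 and 2 as covariate), -0.027 (2 and 4 RUVr factors, each) and -0.00046 (1 fit of 32). Rtn4rl2 in NAc Sal over SVZ Sal went from 1.45 to -0.99 without NAc Sal 4 and DG Sal 3. Leaving out 1 library gave signs of both kinds in these ranges: in the NAc -0.064 to 0.060 for Rtn4, -0.019 to 0.13 for Omg, -0.30 to 1.58 for Rtn4r, -0.37 to 0.092 for Rtn4rl1, -0.47 to 2.46 for Rtn4rl2 and -0.13 to 0.50 for Lingo1; in the DG -0.23 to 0.081 for Omg, -0.061 to 0.68 for Rtn4rl2 and -0.56 to 0.035 for Lingo1; in the CA -0.18 to 0.091 for Omg; in the SVZ -0.35 to 0.17 for Rtn4rl1; in the mean effect -0.040 to 0.090 for Rtn4rl1, -0.51 to 1.04 for Rtn4rl2 and -0.021 to 0.18 for Lingo1; in the DG less the CA -0.24 to 0.083 for Omg and -0.29 to 0.46 for Rtn4rl2; between NAc Sal and SVZ Sal -0.99 to 2.40 for Rtn4rl2; between DG Sal and SVZ Sal -0.16 to 0.31 for Rtn4rl1. The share of Rtn4rl2 changed by -4.11 to 6.997 points with METH in the DG and by -6.03 to 5.77 in the SVZ, and differed by -2.65 to 6.37 points between NAc Sal and SVZ Sal and by -9.78 to 1.33 between DG Sal and CA Sal.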
